A study of Aedes aegypti with 33 samples.

Results

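The PIWI family of Aedes aegypti and its partner Argonaute-3 were followed across cultured mosquito cells grown with and without heme. The members were taken from a list of 8 AAEL identifiers, and not by their response to heme: Piwi1 (AAEL008076), Piwi2 (AAEL008098), Piwi3 (AAEL013692), Piwi4 (AAEL007698), Piwi5 (AAEL013233), Piwi6 (AAEL013227), Piwi7 (AAEL006287) and Argonaute-3 (AAEL007823). Of these, 7 were among the 19712 identifiers counted, and Piwi1 was not among them, so that it was not analysed here. The study asked which genes of cultured cells respond to heme, in a search for genes that act in the transport of heme from a blood meal.

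RNA of Aag2 and A20 cells, both continuous Ae. aegypti lines, was sequenced in 4 experiments of 3 replicates per group, giving 11 groups and 33 libraries. A20 cells were grown for 72 h in serum-free SF900 II medium with 10 μM heme, in SF900 II without heme (0 μM heme), or in L-15 medium with 10% fetal bovine serum (FBS, the regular growth media). Aag2 cells received the same 3 treatments for 72 h, 10 μM heme without FBS, 0 μM heme without FBS, and 10% FBS, once in L-15 medium throughout and once in Schneider's Drosophila medium throughout. The remaining experiment compared Aag2 cells after 48 h with 20 μM heme added to Schneider's medium and FBS with those that had Schneider's medium and FBS alone. Each group was 1 cell line, no group carried a genetic change, and a comparison with FBS changed serum and heme together, so that serum and heme cannot be told apart there. In A20 cells the basal medium changed with them.

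PIWI proteins are the branch of the Argonaute family that binds PIWI-interacting RNAs (piRNAs), small RNAs made without Dicer from long single-stranded transcripts. A PIWI protein loaded with a piRNA cuts complementary RNA, and in the ping-pong cycle a pair of PIWI proteins take turns in cutting sense and antisense transcripts of transposons. In flies the pathway is best known from the germline, whereas in Ae. aegypti the family is expanded, is active in somatic tissues and in cell lines, and also makes piRNAs from the RNA of arboviruses.

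Values are read counts or CPM, the counts expressed relative to the same library total. CPM were scaled by TMM, a normalization that sets the typical gene equal between libraries, within the libraries of an experiment unless a common scale of all 33 is named. A change was called at a false discovery rate (FDR) under 0.0001 by edgeR's quasi-likelihood test with Benjamini-Hochberg adjustment over all genes tested, and log2 fold changes carry their standard error (SE). Groups without overlap are named as such, but were common among all genes, at the share given with each comparison. Values of 3 replicates are given in the order of their numbers, which were not taken to pair libraries between groups. Library totals ran from 22860764 to 38002762 counts (median 26421952). In A20 cells with 10 μM heme, replicate 1 stood apart: over all genes its counts differed from those of replicates 2 and 3 by a chi-square per degree of freedom of 160 and 117, while replicates 2 and 3 differed by 23.2. Replicate 1 also stood apart in the other A20 groups, though by less. Its values were 36.5 and 40.8 with FBS, against 11.1 between replicates 2 and 3. In 0 μM heme they were 37.4 and 44.2, against 11. In A20 cells with 10 μM heme the 10 most counted genes took 14.1% to 17.6% of the counts, against 10% to 10.6% in 0 μM heme and 11% to 11.5% with FBS. Levels are from bulk RNA, in which fewer expressing cells and less RNA per cell cannot be told apart, and levels of different members are not ranked, since no transcript lengths were used. The members are a multigene family, and reads that fit more than one copy equally well could have been lost in the filter on mapping quality.

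The family fell into a high and a low set in these cells. Piwi4, Piwi5, Piwi6 and Argonaute-3 were well counted in every library, at 2931 to 10152 for Piwi4, 6102 to 24807 for Piwi5, 9078 to 32155 for Piwi6 and 2465 to 10624 for Argonaute-3. These are the members known for work outside the germline, with Piwi5 and Argonaute-3 forming the ping-pong pair on viral RNA, Piwi4 acting against viruses, and Piwi6 binding transposon piRNAs. Piwi2 had 0 to 62 counts and was at 0 in 12 libraries, and Piwi3 had 0 to 88 counts and was at 0 in 6. Piwi7, known from early embryos, had 2 to 43 counts. In the plot of CPM by library, Piwi5, Piwi6 and Argonaute-3 are highest in A20 cells with FBS, and Piwi4 in the 48 h experiment.

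**Figure D1:**
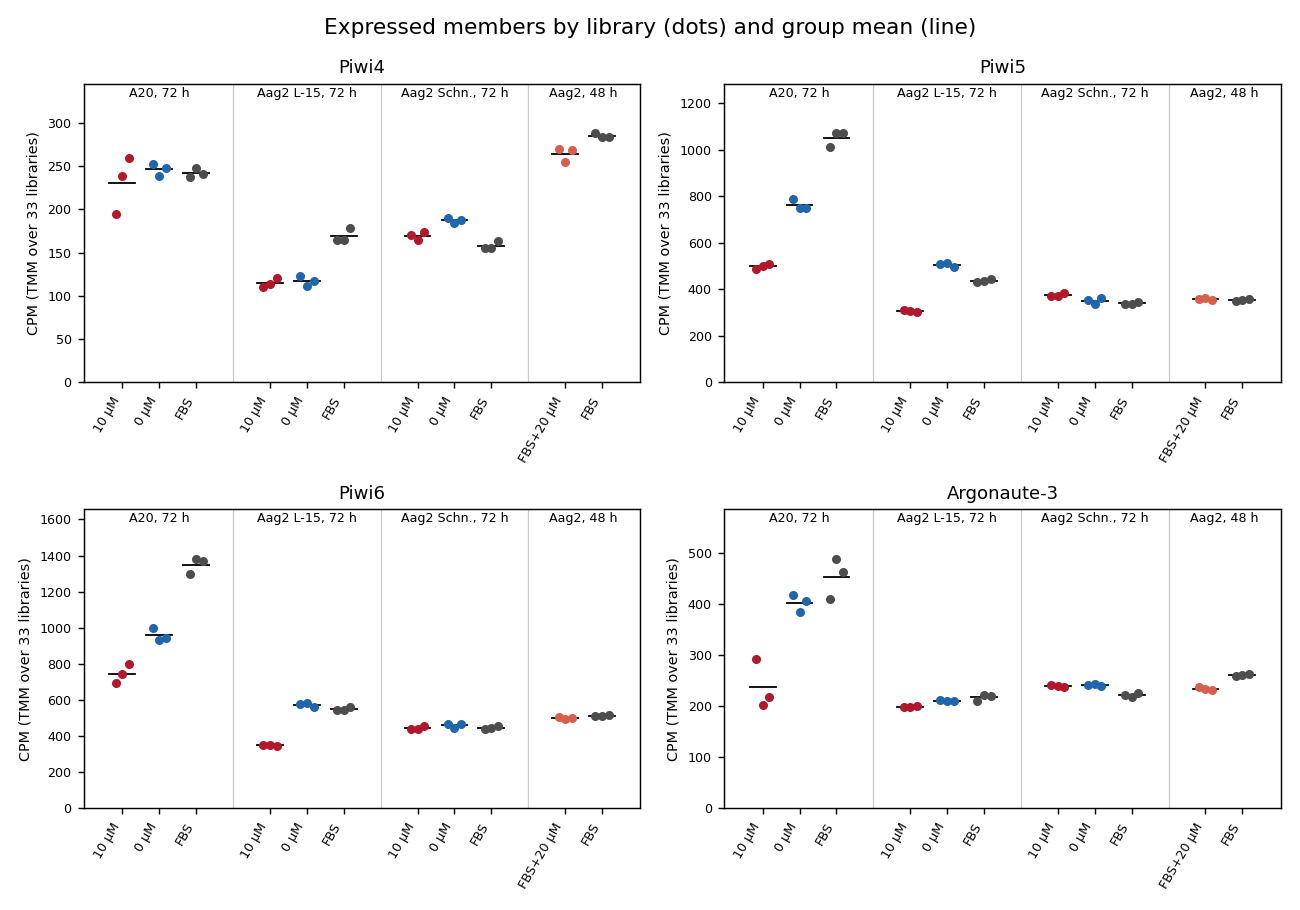
CPM on the common TMM scale of 33 libraries (y axis, linear) for Piwi4, Piwi5, Piwi6 and Argonaute-3 in each library (dots, 3 per group) with the group mean (line), by experiment and treatment (x axis; FBS, regular growth media). Piwi5 and Piwi6 are lowest in Aag2 cells in L-15 medium with 10 μM heme, at means of 306 and 347 CPM, and highest in A20 cells with FBS, at 1050 and 1350 CPM.

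Across the 11 groups, the order of the levels differed between members. On the common scale, Piwi5 averaged 1050 ± 34.6 CPM (SD, n = 3, as for all means here) in A20 cells with FBS and 761 ± 21.7 in A20 cells in 0 μM heme. It was next in Aag2 cells in L-15 medium in 0 μM heme, at 504 ± 9.29, and in A20 cells with 10 μM heme, at 497 ± 9.02, whose replicates overlapped. The lowest Piwi5 level was 306 ± 4.51 CPM, in Aag2 cells in L-15 medium with 10 μM heme, below every replicate of the other groups. Between these lay Aag2 cells in L-15 medium with FBS at 437 ± 5.03, then Schneider's medium with 10 μM heme at 375 ± 7.23, and then, each overlapping the next, 48 h with 20 μM heme (358 ± 4.51), 48 h with FBS alone (353 ± 5.51), Schneider's medium in 0 μM heme (351 ± 12.7) and with FBS (338 ± 5.13).

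Piwi6 followed nearly the same order, with 1350 ± 43.6 CPM in A20 cells with FBS, 958 ± 36.9 in A20 cells in 0 μM heme and 744 ± 51.1 in A20 cells with 10 μM heme, 3 groups without overlap. Its lowest level, 347 ± 4.58 CPM, was again in Aag2 cells in L-15 medium with 10 μM heme. The other groups lay between 442 ± 9.81 CPM, in Schneider's medium with 10 μM heme, and 571 ± 11.2, in L-15 medium in 0 μM heme, and in both Aag2 experiments of 72 h the levels in 0 μM heme and with FBS overlapped.

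Argonaute-3 was highest in A20 cells with FBS (453 ± 40.4 CPM) and in 0 μM heme (402 ± 16.2), which overlapped. The means of all other groups lay in a narrow band, from 198 ± 1 CPM in Aag2 cells in L-15 medium with 10 μM heme to 260 ± 2 in Aag2 cells at 48 h with FBS alone. The mean of A20 cells with 10 μM heme was inside that band, at 237 ± 47.8 CPM, with replicate 1 above it.

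Piwi4 had another order. It was highest at 48 h with FBS alone (285 ± 2.31 CPM) and with 20 μM heme (265 ± 8.39), followed by the 3 groups of A20 cells, which overlapped at 231 ± 32.7 with 10 μM heme, 247 ± 7.09 in 0 μM heme and 242 ± 5.13 with FBS. Its lowest levels were in Aag2 cells in L-15 medium without FBS, at 115 ± 5.69 CPM with 10 μM heme and 117 ± 6 in 0 μM heme, which also overlapped. Between them lay Schneider's medium in 0 μM heme (187 ± 3.06), with 10 μM heme (170 ± 4.51) and with FBS (158 ± 4.62), and L-15 medium with FBS (169 ± 7.81), which overlapped the group with 10 μM heme. Levels in different experiments were not tested against each other here except where a joint fit is named below.

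Over the 11 group means of log2 CPM, Piwi5 and Piwi6 were the closest pair, with a Pearson r of 0.97. Of 7409 other genes with at least 10 CPM, Piwi6 had the highest r with Piwi5, at 0.972, and Piwi5 the highest with Piwi6. The next most alike were AAEL006669 for Piwi5 (r of 0.968) and AAEL001688 for Piwi6 (0.972). For Argonaute-3 they were AAEL019713 (0.987) and AAEL005423 (0.982), and among the members Piwi6, at 0.877, which ranked 75. For Piwi4 they were AAEL000214 (0.971) and AAEL001657 (0.965), while its most similar member was Argonaute-3, at 0.594, ranked 1515. These correlations describe 11 groups that share cell lines, media and experiments, and are not tests.

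In Aag2 cells in L-15 medium, Piwi5 and Piwi6 fell with heme. Piwi5 had 375, 368 and 363 CPM with 10 μM heme, against 590, 602 and 581 CPM in 0 μM heme. Every library with heme lay far below every library without it, and the spread within each group was small against the gap. Piwi5 fell with 10 μM heme by 0.68 on the log2 scale (SE 0.038, FDR 9.96e-08), to 0.624 of its level in 0 μM heme. Piwi6 had 424, 419 and 411 CPM with 10 μM heme, against 669, 681 and 656 CPM in 0 μM heme, again with no overlap. It fell by 0.68 as well (SE 0.038, FDR 1.19e-07).

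The other expressed members did not pass the threshold between 10 and 0 μM heme in L-15 medium. Piwi4 had 132, 136 and 146 CPM with 10 μM heme, against 144, 131 and 138 CPM in 0 μM heme, and its log2 fold change of 0.01 had a 95% interval of −0.10 to 0.12. Argonaute-3 had 239, 237 and 239 CPM with 10 μM heme, against 245, 246 and 247 CPM in 0 μM heme. Its groups did not overlap, but the difference was small, at −0.04 (95% interval −0.12 to 0.03, FDR 0.338), and had the other sign, 0.10, when libraries were scaled by their size alone. In all, by the quasi-likelihood test 0 members rose and 2 of 7 fell, where 9.87% of the 13990 genes tested fell and 18% were called in either direction. The exact test and DESeq2 also called Piwi3, at low counts, as higher, but it passed the filter on low counts through the libraries with 10 μM heme. That call is given as a description. The groups of 4 members did not overlap, nor did those of 66.7% of genes. Of the genes called, 45.2% were higher with heme, and 65% when scaled by library size, which moved the median of all genes by 0.14.

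**Figure D2:**
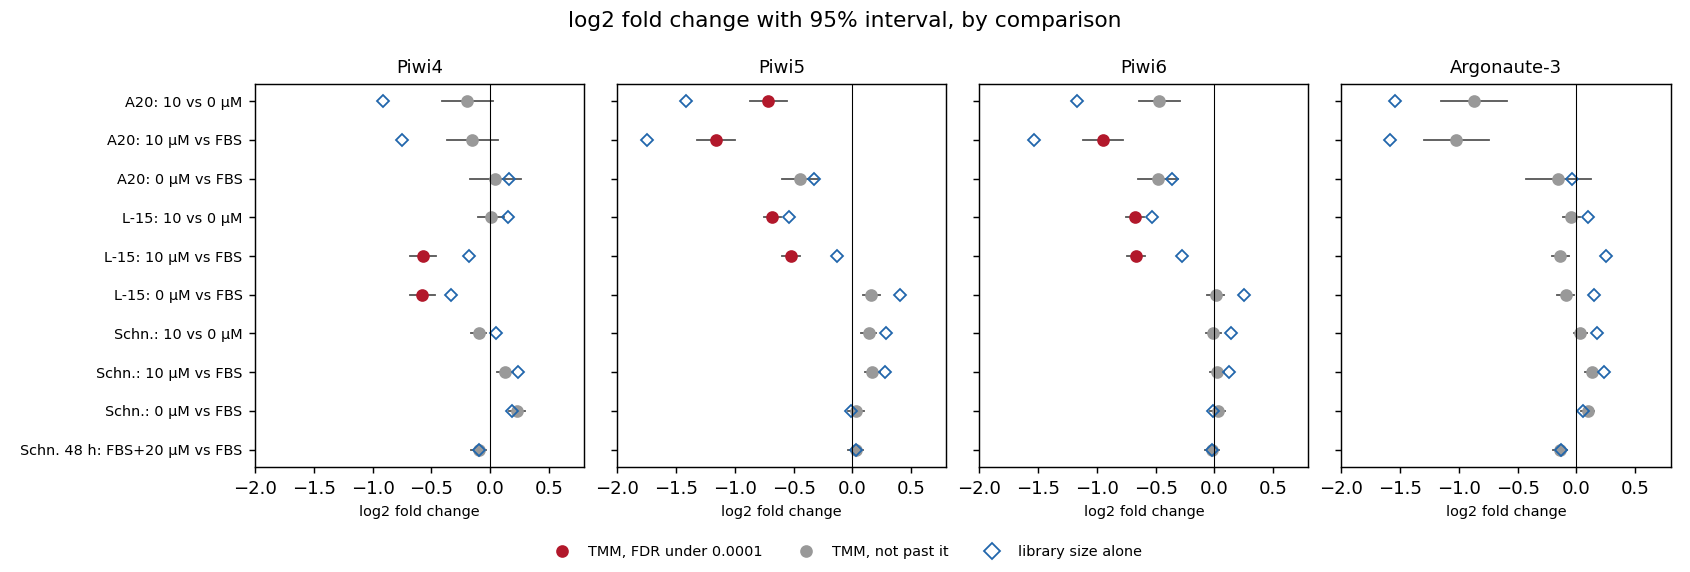
log2 fold change (x axis) of Piwi4, Piwi5, Piwi6 and Argonaute-3 in each comparison within an experiment (rows), with the first-named treatment over the second. Filled circles with 95% intervals are TMM-scaled values, red where the FDR was under 0.0001, and open diamonds are values scaled by library size alone. Piwi5 and Piwi6 lie near −0.68 in L-15 medium with 10 against 0 μM heme under TMM, the TMM values in Schneider's medium and at 48 h lie within ±0.23, and for Argonaute-3 with 10 μM heme against FBS in L-15 medium the 2 scalings lie on opposite sides of 0.

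Against FBS, the L-15 libraries separated Piwi4 from Piwi5 and Piwi6. Piwi4 had 144, 131 and 138 CPM in 0 μM heme, against 201, 197 and 217 CPM with FBS. Its groups did not overlap, and it fell without serum by 0.58 on the log2 scale (SE 0.056, FDR 4.16e-06), beside a value of −0.33 (FDR 0.000462, not called) when scaled by library size. Piwi5 had 590, 602 and 581 CPM in 0 μM heme, against 526, 523 and 537 CPM with FBS, a log2 fold change of 0.16 (FDR 0.00329) that was not called under TMM and was called under library size, at 0.41. Piwi6 differed by 0.01 under TMM (95% interval −0.06 to 0.09, FDR 0.837) and by 0.26 under library size, which was called (FDR 9.8e-05). So with serum removed Piwi4 was lower, while neither Piwi5 nor Piwi6 was.

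With 10 μM heme against FBS, Piwi4, Piwi5 and Piwi6 all fell under TMM. Piwi6 had 424, 419 and 411 CPM with 10 μM heme, against 657, 654 and 680 CPM with FBS, and fell by 0.67 (SE 0.038, FDR 3.1e-08). Piwi5 had 375, 368 and 363 CPM with 10 μM heme, against 526, 523 and 537 CPM with FBS, and fell by 0.52 (FDR 2.15e-07). Piwi4 fell by 0.57 (FDR 3.11e-06), beside the 0.58 by which it fell in 0 μM heme. None of the 3 had overlapping groups. The scaling mattered here, since it moved the median of all genes by 0.39: scaled by library size, the log2 fold changes were −0.28 for Piwi6 (FDR 3.9e-05), −0.13 for Piwi5 (FDR 0.00706) and −0.18 for Piwi4 (FDR 0.0163), and only that of Piwi6 was called. Argonaute-3 was −0.14 (FDR 0.00707, not called) under TMM and rose by 0.25 (FDR 9.34e-05) under library size.

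Apart from Piwi2 and Piwi3, which had almost no counts with FBS and are described next, 5 members were tested. In 0 μM heme against FBS, 0 of these 5 rose and 1 fell (Piwi4), where 10.8% of all genes rose and 13.1% fell, 23.9% in all. Under library size 2 of them rose (Piwi5 and Piwi6) and 0 fell. With 10 μM heme against FBS, 0 rose and 3 fell, where 15.5% of genes rose and 18.2% fell, 33.7% in all. Under library size 1 rose (Argonaute-3) and 1 fell (Piwi6). Groups were without overlap for 61.9% of genes in 0 μM heme and 71.3% with 10 μM heme. Of all genes called, 45.2% were higher in 0 μM heme and 45.9% with 10 μM heme, or 70.8% and 74.7% under library size. Both comparisons share the libraries with FBS.

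Piwi2 and Piwi3, which in mosquitoes are known mainly from germline tissue, had 0 to 2 counts in the libraries of L-15 medium with FBS. Both passed the filter on low counts through the groups in which they were high, so that a difference was bound to be seen, and their values are given as a description. Piwi2 had 44, 52 and 62 counts with 10 μM heme and 59, 22 and 39 counts in 0 μM heme, against 0, 0 and 1 with FBS. Summed over the replicates, its ratio to FBS was 129 (95% counting interval 22.9 to 5140) with 10 μM heme and 78.9 (13.9 to 3140) in 0 μM heme, intervals that cover counting error only. The FDR was 3.93e-06 with 10 μM heme and 2.27e-05 in 0 μM heme. The ratio between 10 and 0 μM heme was 1.64 (counting interval 1.28 to 2.1), and the groups overlapped (FDR 0.0863).

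Piwi3 had 60, 50 and 71 counts with 10 μM heme and 28, 4 and 10 in 0 μM heme, against 2, 0 and 0 with FBS. All libraries with heme were above all libraries without it, and those in turn above all with FBS. The ratio to FBS was 74.1 (counting interval 20.2 to 616) with 10 μM heme (FDR 5.68e-05) and 13.8 (3.59 to 118) in 0 μM heme, which was not past the threshold (FDR 0.00884). Between 10 and 0 μM heme the ratio was 5.37 (3.82 to 7.7), with an FDR of 0.00233 that was not past the threshold. The exact test and DESeq2 called this difference. Since Piwi3 passed the filter through the libraries with 10 μM heme, these values too are given as a description.

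The call for Piwi2 in 0 μM heme was lost without any single library with FBS or without replicate 3 of 0 μM heme (FDR up to 0.000194). With 10 μM heme against FBS, the call for Piwi3 was lost without any single library with FBS or with 10 μM heme, or without replicate 3 of 0 μM heme (FDR up to 0.000418). The 4 identifiers set down as germline markers from general knowledge, none named by the annotation used here, summed to 166 to 176 CPM with 10 μM heme, 162 to 168 in 0 μM heme and 278 to 320 with FBS, nearly all from AAEL004978. The other 3, all at low levels, summed to 3.44 to 4.05 CPM with 10 μM heme, 0.948 to 1.39 in 0 μM heme and 0.622 to 1.18 with FBS. Among the groups in L-15 medium, these 3 and Piwi3 were highest with 10 μM heme. AAEL004978 went the other way, at 169 ± 5.45 CPM with 10 μM heme against 298 ± 20.5 with FBS. In A20 cells the 3 without AAEL004978 summed to 1.73 to 2.36 CPM with 10 μM heme, 2.57 to 3.49 in 0 μM heme and 1.72 to 2.18 with FBS. Over all 11 groups the mean of Piwi3 on the common scale was highest in A20 cells in 0 μM heme, at 2.91 CPM. Piwi3 there had 2 to 19, 44 to 88 and 41 to 57 counts, in the same order. The part of the markers in these results was not tested.

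**Figure D3:**
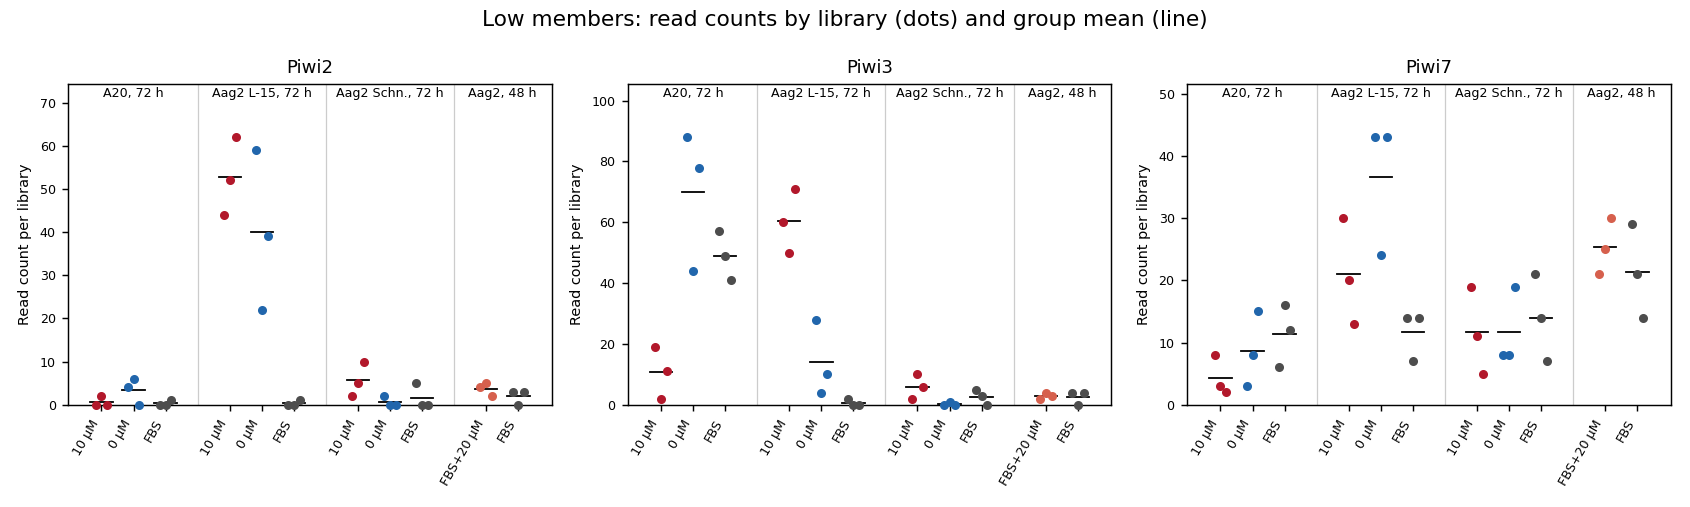
Read counts per library (y axis, linear) of Piwi2, Piwi3 and Piwi7 (dots, 3 per group) with the group mean (line), by experiment and treatment (x axis). Piwi2 has 22 to 62 counts in the 6 libraries of L-15 medium without FBS and at most 10 in any other library, whereas Piwi3 is also present in A20 cells, with 41 to 57 counts with FBS.

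Piwi7 stayed low in L-15 medium, with 30, 20 and 13 counts with 10 μM heme, 43, 24 and 43 in 0 μM heme and 14, 7 and 14 with FBS. In 0 μM heme all libraries were above those with FBS, at a ratio of 2.07 (counting interval 1.4 to 3.12), but the difference was not called (FDR 0.047).

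The same treatments in Schneider's medium gave smaller differences. Piwi5 had 391, 393 and 403 CPM with 10 μM heme, against 361, 345 and 372 CPM in 0 μM heme. The groups did not overlap, but heme went with the higher level, and the log2 fold change of 0.14 (SE 0.033, FDR 0.00487) was not called, though it was under library size (0.28, FDR 3.07e-05). Piwi6 had 460, 462 and 478 CPM with 10 μM heme, against 478, 452 and 476 CPM in 0 μM heme, with overlapping groups and a log2 fold change of −0.01 (95% interval −0.07 to 0.05), or 0.14 under library size. Argonaute-3 differed by 0.03 (95% interval −0.02 to 0.09), and Piwi4 by −0.10 (FDR 0.0321), which was 0.05 under library size.

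In 0 μM heme against FBS in Schneider's medium, Piwi4 was the tested member furthest from 0 under TMM. It had 194, 188 and 193 CPM in 0 μM heme, against 163, 160 and 169 CPM with FBS, a log2 fold change of 0.23 (SE 0.034, FDR 0.00081) without overlap that was not called. With 10 μM heme it had 179, 175 and 184 CPM, 0.13 above FBS (FDR 0.0113). Piwi5 with 10 μM heme was 0.17 above FBS (FDR 0.00164) and Argonaute-3 0.13 above it (FDR 0.00339), and both were called under library size (0.28 and 0.24).

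By the quasi-likelihood test 0 of 5 members tested passed in any of the 3 comparisons, where 17.1% of 13171 genes were called with 10 against 0 μM heme, 13.8% with 10 μM heme against FBS and 2.5% in 0 μM heme against FBS. At an unadjusted p under 0.05 there were 2, 3 and 2 members. The exact test called 0 in each, and DESeq2 called 0, 1 (Piwi5) and 1 (Piwi4), in the same order. Groups were without overlap for 3, 3 and 2 members, and for 59.1%, 53.6% and 38.7% of genes. Scaling by library size moved the median of all genes by 0.15, 0.11 and −0.04, and the share of called genes that were higher was 44.1%, 45.9% and 58.4%, or 67.7%, 64.8% and 46% under library size. Piwi2, with 2, 5 and 10 counts with 10 μM heme, 2, 0 and 0 in 0 μM heme and 5, 0 and 0 with FBS, was not tested. Nor was Piwi3, with 2, 10 and 6 counts with 10 μM heme, 0, 1 and 0 in 0 μM heme and 5, 3 and 0 with FBS. Piwi7 had 5 to 19 counts with 10 μM heme, 8 to 19 in 0 μM heme and 7 to 21 with FBS.

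The difference between the media was tested itself, in a joint fit of the 18 libraries of both Aag2 experiments at 72 h. The response of Piwi5 to 10 against 0 μM heme was lower in L-15 medium than in Schneider's medium by 0.83 on the log2 scale (SE 0.045, FDR 3.21e-10), and that of Piwi6 by 0.68 (SE 0.045, FDR 3.5e-09). Of the 7 members, 2 differed, both lower, where 6.64% of 14332 genes were lower and 9.87% differed in either direction. The responses of Argonaute-3 and Piwi4 differed by −0.09 (FDR 0.11) and 0.09 (FDR 0.29), which was not called, nor were those of Piwi2 (FDR 0.196), Piwi3 (FDR 0.481) and Piwi7 (FDR 0.598). Scaled by library size, the values were −0.82 for Piwi5 and −0.67 for Piwi6.

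The response to serum removal differed between the media for Piwi4. In 0 μM heme against FBS, its log2 fold change in L-15 medium was lower than that in Schneider's medium by 0.78 (SE 0.065, FDR 1.69e-08), and by 0.52 under library size (FDR 4.93e-06). Piwi2, at 0 to 5 counts in the Schneider's libraries of both groups, had an FDR of 0.0057, and Piwi3 of 0.00991. Piwi4 was the 1 member of 7 called, where 12.3% of genes were lower and 22.1% were called in all. Under library size the median of all genes moved by 0.26, Piwi5 (0.42) and Piwi6 (0.27) were also called, as higher, and 69% in place of 44.1% of the called genes were higher. With FBS present, Piwi5 was higher in L-15 than in Schneider's medium by 0.37 (SE 0.032, FDR 3.35e-08) and Piwi6 by 0.31 (SE 0.032, FDR 2.78e-07), 2 of 7 members, where 8.76% of genes were higher and 17% were called in all. There was no overlap for 3 members and for 49.2% of genes. Both calls were lost when only those 6 libraries were fitted. Argonaute-3 (−0.03) and Piwi4 (0.10, FDR 0.0804) were not called, and medium and experiment cannot be told apart in such levels.

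In A20 cells Piwi5 fell with 10 μM heme against both 0 μM heme and FBS, and Piwi6 fell against FBS alone. Piwi5 had 362, 371 and 376 CPM with 10 μM heme, 627, 596 and 598 CPM in 0 μM heme and 794, 839 and 846 CPM with FBS, 3 groups well apart. It fell with 10 μM heme by 0.72 against 0 μM heme (SE 0.08, FDR 4.88e-05) and by 1.16 against FBS (SE 0.081, FDR 9.02e-06). Against 0 μM heme the median of all genes was −0.19 under TMM, and only 38.2% of genes changed by no more than Piwi5 in either direction. Against FBS that median was 0.02 and that share 66.7%. Piwi6 had 514, 552 and 593 CPM with 10 μM heme, 799, 743 and 752 CPM in 0 μM heme and 1030, 1090 and 1090 CPM with FBS, also without overlap. Against FBS it fell by 0.95 (SE 0.089, FDR 3.01e-05), while against 0 μM heme its log2 fold change of −0.47 was not called (FDR 0.00117).

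Argonaute-3 had 216, 150 and 162 CPM with 10 μM heme, 333, 307 and 323 CPM in 0 μM heme and 323, 383 and 367 CPM with FBS. All 3 libraries with heme were below the other 6, and replicate 1, the library that stood apart most, was the highest of the 3. The log2 fold change of Argonaute-3 was −0.87 against 0 μM heme (SE 0.14, FDR 0.000487) and −1.02 against FBS (SE 0.14, FDR 0.000247). The quasi-likelihood test called neither, while the exact test and DESeq2 called both with all libraries kept. Without replicate 1 the quasi-likelihood test called both, at −1.04 (FDR 9.02e-06) and −1.20 (FDR 4.81e-06), and Piwi5 and Piwi6 were −1.15 and −0.90 against FBS.

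Piwi4 in A20 cells had 145, 178 and 192 CPM with 10 μM heme, 202, 191 and 198 CPM in 0 μM heme and 188, 195 and 191 CPM with FBS. Its groups overlapped, and its log2 fold changes were −0.20 against 0 μM heme (95% interval −0.41 to 0.02) and −0.15 against FBS (−0.37 to 0.06). Scaled by library size they were −0.91 and −0.75, and both were called. Piwi3 had 19, 2 and 11 counts with 10 μM heme, 88, 44 and 78 in 0 μM heme and 57, 49 and 41 with FBS. All libraries with heme were below the others, at a ratio of 0.245 (counting interval 0.164 to 0.357) to 0 μM heme (FDR 0.00578) and of 0.331 (0.219 to 0.488) to FBS (FDR 0.0216), and neither was called. In Aag2 cells in L-15 medium its counts with heme had been the higher ones. Piwi2, at 0 to 6 counts, was not tested, and Piwi7 had 2 to 8 counts with 10 μM heme, 3 to 15 in 0 μM heme and 6 to 16 with FBS.

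Without heme, A20 cells in SF900 II differed less from those with FBS. Piwi5 and Piwi6 had log2 fold changes of −0.45 (FDR 0.00355) and −0.48 (FDR 0.00394) without overlap, and Argonaute-3 of −0.16 (95% interval −0.43 to 0.12). By the quasi-likelihood test 0 of 6 members passed, where 0.433% of 12249 genes were called, while 2 had an unadjusted p under 0.05. The groups of 2 members did not overlap, nor did those of 57.1% of genes. The exact test called 0 and DESeq2 called 2, Piwi5 and Piwi6.

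With 10 μM heme in A20 cells, 2 of 6 members fell against FBS, where 6.38% of genes fell and 10.8% were called in all, and 1 fell against 0 μM heme, where 9.14% fell and 18.9% were called. Groups were without overlap for 4 members in each, and for 64.1% of genes against FBS and 71.1% against 0 μM heme. These counts depended on the scaling and on single libraries. Library size alone moved the median of all genes by −0.58 against FBS and −0.70 against 0 μM heme, gave 3 members in each, and put Piwi5 at −1.75 and −1.42, with 11.7% and 16.5% of called genes higher in place of 41.2% and 51.7%. In 0 μM heme against FBS it moved the median by 0.12 and called 0 members. The call for Piwi5 against 0 μM heme was lost without any single library of the experiment other than replicate 1 of 10 μM heme (FDR up to 0.000438), and in a fit of only those groups. Against FBS, the call for Piwi5 was lost without replicate 2 or 3 of FBS (FDR up to 0.00012), and that for Piwi6 without any library other than replicate 1 of 10 μM heme or replicate 1 of 0 μM heme (FDR up to 0.00034).

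The response to 10 against 0 μM heme in A20 cells was set against that in Aag2 cells in L-15 medium in a joint fit of 18 libraries. The A20 cells of both groups were in SF900 II medium, so that cell line, basal medium and experiment cannot be told apart here. Piwi5 differed by 0.11 (95% interval −0.04 to 0.26, FDR 0.239), Piwi6 by 0.35 (FDR 0.0024), Piwi4 by −0.06 (FDR 0.705), Argonaute-3 by −0.68 (FDR 0.00108) and Piwi3 by −4.38 (FDR 0.000186), with Piwi2 (FDR 0.175) and Piwi7 (FDR 0.746) at few counts. The quasi-likelihood test called 0 of 7 members, where 26.5% of 14594 genes were called, 3 members had an unadjusted p under 0.05, and DESeq2 called 2, Piwi3 and Argonaute-3. Scaling by library size moved the median of all genes by −0.98, turned Piwi5 to −0.88 and Piwi6 to −0.64, called 5 members, all as lower, and put 14.9% in place of 56.5% of called genes higher. Without replicate 1 of A20 cells with 10 μM heme, 3 were called, Piwi3 (−4.93), Piwi6 (0.44) and Argonaute-3 (−0.82), and without replicate 1 of Aag2 cells in 0 μM heme, 1 was.

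With FBS and in the same medium, Piwi5, Piwi6 and Argonaute-3 were higher in A20 than in Aag2 cells. On the scale of the joint fit, Piwi5 averaged 1010 ± 38 CPM in A20 cells and 420 ± 4.3 CPM in Aag2 cells, a log2 fold change of 1.26 (SE 0.056, FDR 6.29e-12). Piwi6 averaged 1300 ± 45 CPM in A20 cells and 527 ± 9.37 CPM in Aag2 cells, and was higher by 1.30 (SE 0.063, FDR 1.86e-11). Argonaute-3 averaged 436 ± 40.2 CPM in A20 cells and 208 ± 5.89 CPM in Aag2 cells, higher by 1.07 (SE 0.11, FDR 1.94e-07). Each of these was at least 0.81 under library size and was called there too.

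Piwi4 differed least of the 4 well counted members, with 233 ± 5.94 CPM in A20 cells and 163 ± 7.41 CPM in Aag2 cells. It was higher by 0.52 (SE 0.088, FDR 6.27e-05), but the call was lost under RLE scaling, under library size (0.27, FDR 0.00444) and in a fit of the compared groups alone. It was also lost without any single library of Aag2 cells, any of A20 cells with FBS, or replicate 2 or 3 of the A20 libraries in 0 μM heme (FDR up to 0.000646). Piwi3 had 57, 49 and 41 counts in A20 cells against 2, 0 and 0 in Aag2 cells, a ratio of 90.7 (counting interval 24.7 to 756, FDR 6.06e-06), and it passed the filter through the groups with high counts. Piwi2 had 0, 0 and 1 counts in both lines, and Piwi7 did not pass (34 against 35 counts in all, FDR 0.663). Of the 7 members tested 5 were called as higher in A20 cells, the 4 well counted ones and Piwi3, and 0 as lower. Over all genes 19.2% were higher and 38.1% were called in all, and the groups of 75.7% did not overlap. Library size moved the median of all genes by −0.25, called 3 of the 4 well counted members, and put 39.1% in place of 50.4% of called genes higher. Cell line and experiment cannot be told apart in this comparison.

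With 20 μM heme added to Aag2 cells that kept their serum, the 4 well counted members were within 0.14 of FBS alone at 48 h. Argonaute-3 had 252, 248 and 246 CPM with 20 μM heme, against 268, 275 and 278 CPM with FBS alone, without overlap and at −0.14 (SE 0.032, FDR 0.0151). Piwi4 had 287, 271 and 285 CPM with 20 μM heme, against 300, 301 and 301 CPM with FBS alone, also without overlap, at −0.10 (FDR 0.07). Piwi5 differed by 0.03 (95% interval −0.04 to 0.09) and Piwi6 by −0.02 (−0.08 to 0.04), and their groups overlapped. Piwi7 had 21, 25 and 30 counts with 20 μM heme, against 29, 21 and 14 with FBS alone, a ratio of 1.23 (counting interval 0.873 to 1.75). Piwi2 had 4, 5 and 2 counts with 20 μM heme, against 3, 0 and 3 with FBS alone, and was not tested. Piwi3 had 2, 4 and 3 counts with 20 μM heme, against 4, 0 and 4 with FBS alone, and was not tested. By the quasi-likelihood test, the exact test and DESeq2 0 of 5 members passed, where 0.766% of 12007 genes were called, and 2 had an unadjusted p under 0.05. There was no overlap for 2 members and for 40.5% of genes.

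Ratios of counts between members within a library do not depend on how libraries are scaled. The ratio of Piwi5 to Piwi6 ranged only from 0.634 to 0.886 over the 33 libraries, and in L-15 medium it averaged 0.882 ± 0.0027 with 10 μM heme, 0.884 ± 0.00189 in 0 μM heme and 0.797 ± 0.00662 with FBS. The ratio with and without heme thus differed there by less than its spread. In A20 cells the ratio was lower with heme, at 0.703, 0.672 and 0.634 with 10 μM heme, against 0.784, 0.802 and 0.795 in 0 μM heme and 0.771, 0.773 and 0.779 with FBS. In Schneider's medium it was higher with heme, at 0.85, 0.851 and 0.844, against 0.755, 0.762 and 0.781 in 0 μM heme. Each of these sets is without overlap, and with 3 against 3 libraries an exact permutation test could not give a two-sided p below 0.1.

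The ratio of Argonaute-3 to Piwi6 is given without a test. In L-15 medium it averaged 0.571 ± 0.00927 with 10 μM heme, 0.368 ± 0.00819 in 0 μM heme and 0.395 ± 0.00955 with FBS. In A20 cells with 10 μM heme it was 0.42, 0.272 and 0.273, against 0.417, 0.413 and 0.429 in 0 μM heme and 0.314, 0.353 and 0.338 with FBS. Replicate 1 with heme, the library that stood apart most, was thus at the level of 0 μM heme and above FBS, and the other 2 were below both. In Schneider's medium it averaged 0.54 ± 0.0151 with 10 μM heme, 0.525 ± 0.0187 in 0 μM heme and 0.5 ± 0.00775 with FBS. At 48 h it was 0.469, 0.472 and 0.465 with 20 μM heme, against 0.507, 0.508 and 0.511 with FBS alone. The ratio of Piwi4 to Piwi6 had the widest range of the pairs plotted, 0.176 to 0.567, with the lowest values in A20 cells with FBS and the highest at 48 h.

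**Figure D4:**
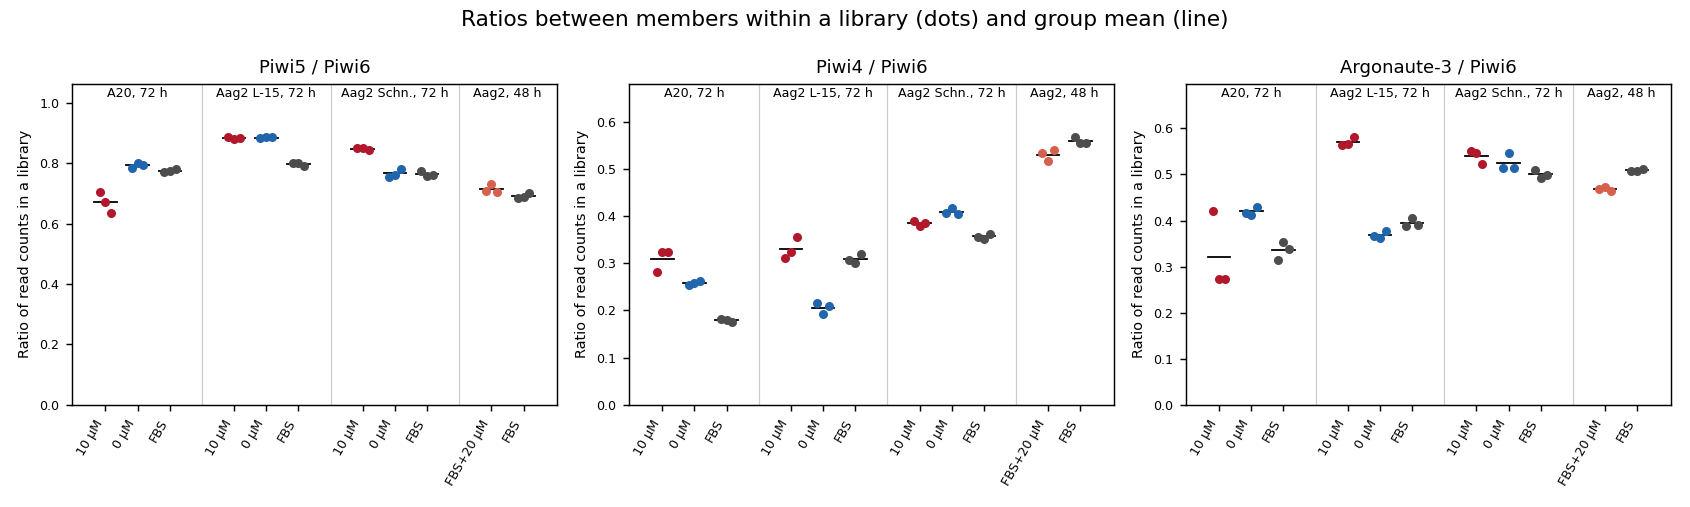
Ratio of read counts between members within each library (y axis, linear; dots, 3 per group; line, group mean) by experiment and treatment (x axis). Piwi5 over Piwi6 stays between 0.634 and 0.886, whereas Argonaute-3 over Piwi6 is higher with 10 μM heme in Aag2 cells in L-15 medium and in A20 cells is lower in 2 of 3 such libraries than in either other group.

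Other small RNA genes were followed by lists of identifiers set down from general knowledge, whose names the annotation used here does not give. Of 7 identifiers listed for the piRNA pathway 5 were counted, and all 5 were tested in every comparison. With FBS, 3 of them were higher in A20 than in Aag2 cells in L-15 medium and 0 were lower, with a median log2 fold change of 1.36, against −0.05 over all genes, of which 19.2% were higher and 38.1% were called. In L-15 medium with 10 against 0 μM heme 0 of 5 were called, against 18% of all genes, at a median of 0.04, against 0.02 over all genes. In L-15 medium against FBS, 0 rose and 2 fell with 10 μM heme, where 33.7% of genes were called, and 1 rose and 2 fell in 0 μM heme, where 23.9% were. In A20 cells 1 fell with 10 μM heme against FBS, where 10.8% of genes were called, at a median of −0.88, against 0.02 over all genes. Against 0 μM heme 0 were called, where 18.9% of genes were, at a median of −0.45, against −0.19 over all genes. In Schneider's medium and at 48 h 0 of 5 were called in each comparison, where 0.766% to 17.1% of genes were.

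Of 7 identifiers listed for the other Argonaute and Dicer genes all were counted. In L-15 medium with 10 against 0 μM heme 1 rose and 1 fell, where 18% of genes were called, and in A20 cells 0 rose and 2 fell, where 18.9% were. AAEL012410, named AGO1b in the study's tables, averaged 299 ± 17.3 CPM with 10 μM heme in L-15 medium, 368 ± 6.45 in 0 μM heme and 308 ± 5.52 with FBS, and in A20 cells 158 ± 32.8 CPM with 10 μM heme, 131 ± 5.71 in 0 μM heme and 133 ± 4.57 with FBS. It was not called in any comparison. With FBS, 1 of the 7 was called as higher in A20 than in Aag2 cells and 1 as lower, where 38.1% of genes were called. AAEL012410 had a log2 fold change of −0.59 there (FDR 0.000138, not called), the opposite sign to Piwi4, Piwi5, Piwi6 and Argonaute-3.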

How the data were processed

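RNA was sequenced from 33 libraries of Ae. aegypti cell lines, and the midgut libraries of the study were not analysed here. The deposited values are whole-number read counts per identifier, made by the authors by alignment to AaegL5 with HISAT2 2.1.0, a SAMtools filter that kept a mapping quality of at least 10, and counting with bedtools 2.19.1. Strand and counting options are not given in the sources used here. The labels and the study's methods name different library kits for the 48 h experiment.

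The tests were run in edgeR 4.0.16 under R 4.3.3 (filterByExpr, TMM, quasi-likelihood fit of all libraries of an experiment, or of 18 libraries in joint fits), with limma 3.58.1 loaded, and DESeq2 1.42.0 as an alternative. The threshold was an FDR of 0.0001, as in the study, which named edgeR's exact test. SEs were derived from the F statistic (log2 fold change over root F). Correlations used log2 CPM with a prior count of 2. No replicates looked like one library deposited again: the chi-square per degree of freedom between replicates was at least 7.01. Counting intervals are exact 95% intervals of a ratio of summed counts. Steps were tested on simulated data. Figures were drawn with matplotlib 3.10.9.

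All members are named, and for each with at least 10 CPM the 2 genes most like it. The lists were for the piRNA pathway, other Argonaute and Dicer genes, and germline markers. The members came from a list of identifiers and not from their response to heme. That choice and the choice of the lists were still made with earlier results of these data known. Of the members 0 matched the reference table, so no sequence or length was used. Alternatives were the exact test, DESeq2, scaling by RLE or by library size, dropping the filter or asking for over 1 CPM in 3 libraries, a replicate block, fitting the compared groups by themselves, an FDR of 0.05, and each library left out in turn. Replicates are those of the labels, and where the cultures were not separate, p-values measure only the spread between these libraries.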

Additional observations from a re-analysis of the deposited data

Results flagged for a closer look

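The effect of the same contrast differed between the media in 3 results, by an interaction test in edgeR over 18 libraries. For the response to 10 against 0 μM heme, L-15 minus Schneider's medium, the difference was −0.83 for Piwi5 (FDR 3.21e-10) and −0.68 for Piwi6 (FDR 3.5e-09), where Piwi5 changed by −0.68 and 0.14 and Piwi6 by −0.68 and −0.01 in the separate fits. For serum removal, 0 μM heme against FBS, the difference was −0.78 for Piwi4 (FDR 1.69e-08), which changed by −0.58 in L-15 medium and 0.23 in Schneider's medium. Medium and experiment cannot be told apart in these differences.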

How the results depend on the processing

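Where tested, Piwi2 and Piwi3 passed the filter on low counts through groups in which they were high, so that their calls are a description. Counts of members called, with both included where tested, are given as alternative against the reported design. In Schneider's medium at 72 h they were 2, 3 and 2 at an FDR of 0.05 in 0 μM heme against FBS, 10 μM heme against FBS and 10 against 0 μM heme, against 0 in each. DESeq2 gave 1 in both comparisons with FBS, and library size alone gave 2 for 10 μM heme against FBS and 1 for 10 against 0 μM heme. In L-15 medium in 0 μM heme against FBS they were 5 at an FDR of 0.05, 1 in a fit of only the groups compared, and 1 to 2 with each library left out, against 2. With 10 against 0 μM heme in L-15 medium, the exact test and DESeq2 also called Piwi3. In A20 cells in 0 μM heme against FBS they were 2 at an FDR of 0.05 and 2 by DESeq2, against 0. With 10 μM heme against FBS they were 4 at an FDR of 0.05, 0 in a fit of only the groups compared, and 0 to 3 with each library left out, against 2. The exact test and DESeq2 also called Argonaute-3 there. With 10 against 0 μM heme they were 4 at an FDR of 0.05, 0 with RLE size factors, 3 with library size, 2 by the exact test, 2 by DESeq2, 0 in a fit of only the groups compared and 0 to 2 with each library left out, against 1. At 48 h there was 1 at an FDR of 0.05, against 0. Between L-15 and Schneider's medium with FBS there were 0 in a fit of only the groups compared, against 2. For the heme response of A20 against Aag2 cells they were 3 at an FDR of 0.05, 5 with library size, 2 by DESeq2 and 0 to 3 with each library left out, against 0. For serum removal between the media they were 5 at an FDR of 0.05, 3 with library size and 2 by DESeq2, against 1.

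Library size alone reversed Argonaute-3 with 10 μM heme against FBS in L-15 medium, to 0.25, and the heme response of A20 against Aag2 cells for Piwi5, to −0.88, and Piwi6, to −0.64. The other causes were not tested. Replicate numbers showed little sign of pairing libraries: 1 of 30 correlations of same-numbered deviations was over 0.1 (−0.044 to 0.13). That correlation, 0.13, was for replicate 1 of A20 cells between FBS and 0 μM heme, so pairing in A20 cells was not excluded. With the replicate block the counts in L-15 medium were 1 in 0 μM heme against FBS, with Piwi2 not called, and 4 in place of 5 with 10 μM heme against FBS, with Piwi3 not called (FDR 0.000118), and they were 0 in A20 cells with 10 μM heme against both FBS and 0 μM heme. Depth limits Piwi2, Piwi3 and Piwi7, whose counts were at most 62, 88 and 43.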
